A study of Sus scrofa with 10 samples.

Results

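Potassium channel genes were examined in right ventricular biopsies of CTEPH pigs and Sham pigs. CTEPH is chronic thromboembolic pulmonary hypertension, a disease of clotted lung arteries that makes the right ventricle pump against a raised pressure. The members are all genes of the table whose symbol begins with KCN, followed by further letters and a digit, which gave 35 genes out of 12378 with a symbol and 3260 without. They comprise 12 voltage-gated channel genes, 7 inward rectifiers, 2 two-pore channel genes, 5 genes of the calcium-activated family and 9 beta or auxiliary subunits. CTEPH is represented by libraries s1, s3, s4, s5 and s9 and Sham by libraries s2, s6, s7, s8 and s10, with 1 library for each of the 10 pigs. The breed, age, sex, way of inducing CTEPH and time after surgery are not stated in the labels, nor is any batch. Another 53 family symbols of the name table have no row among these genes, and genes without a symbol could not be assigned, so further family members are not analysed here.

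Potassium channels let potassium leave the cardiomyocyte and so end the action potential and set the resting potential. Voltage-gated channels carry the transient outward current of early repolarization and the delayed rectifier currents of late repolarization. Inward rectifiers hold the resting potential, and some of them respond to acetylcholine or to the energy state of the cell. Beta subunits bind the pore-forming subunits and change their trafficking and gating. A lower transient outward current and a longer action potential are textbook features of the hypertrophied and failing ventricle. This account is not specific to the pig, and neither feature was examined here.

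Of the 35 members, 1 was higher and 2 were lower in CTEPH at an adjusted p under 0.05 (limma, Benjamini-Hochberg over all genes). Over all genes tested, 2.83% were called higher and 1.79% lower, 4.62% in all. The called members are KCND3 and KCNS3, both lower, and KCNA5, which was higher, and all 3 are voltage-gated subunit genes. Of the members, 11 had an unadjusted p under 0.05, 5 higher and 6 lower, against 20.3% of all genes (9.84% higher and 10.5% lower). KCND3 was the only member whose groups did not overlap, against 6.57% of all genes. The median log2 fold change of the members was -0.04 and that of all genes -0.03. The median size of the change regardless of sign was 0.51 for the members and 0.25 for all genes on the log2 scale. Without the lowest 25% of genes by mean level, 19 of the 35 members remained. The part of low level in the larger median size was not tested. Fold changes are given as CTEPH minus Sham on the deposited log2 scale, each ± its standard error, and "limma adjusted p" is the Benjamini-Hochberg value over all genes.

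**Figure D1:**
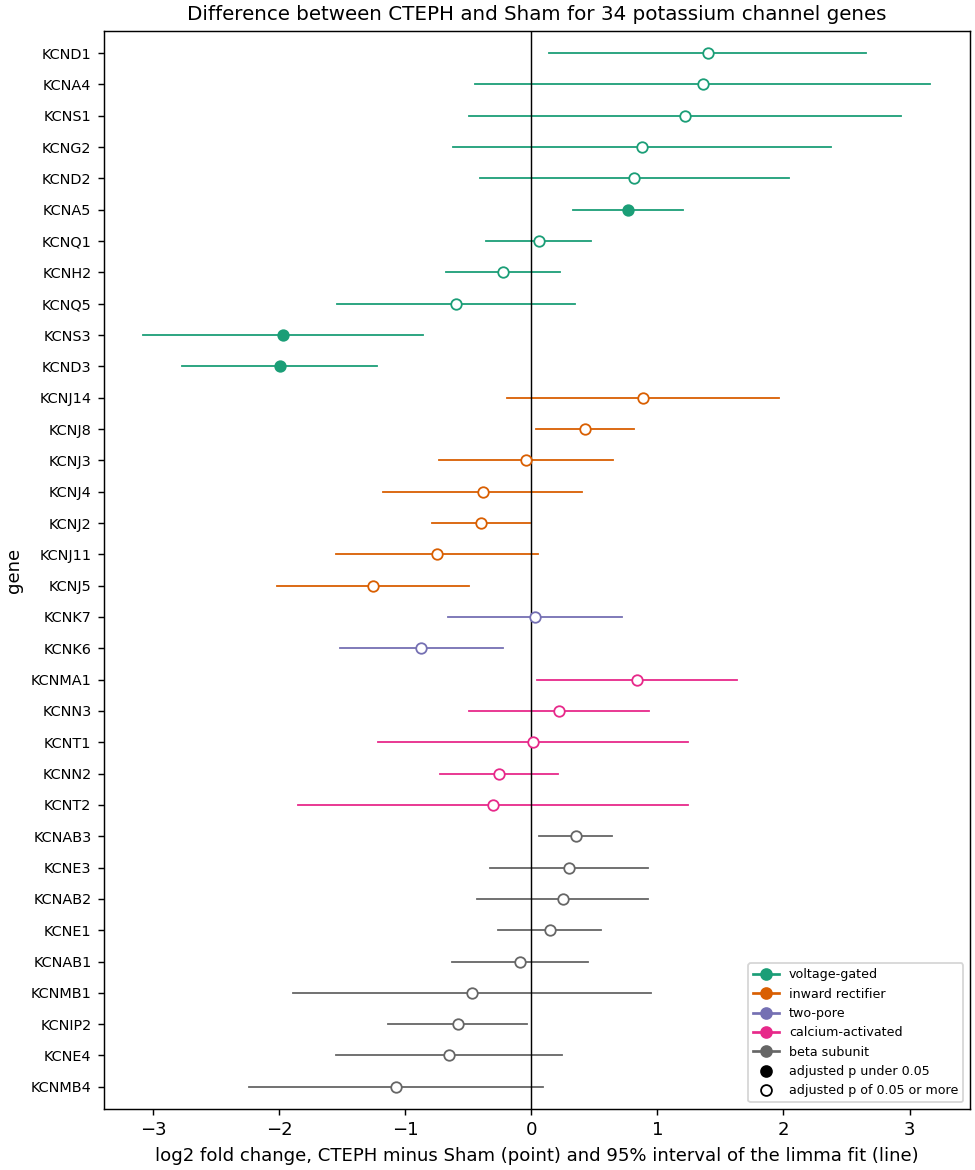
Log2 fold changes (horizontal axis, CTEPH minus Sham) of 34 of the 35 potassium channel genes grouped by class, with the 95% interval of the limma fit as a line. Filled points passed an adjusted p of 0.05, which are KCND3 and KCNS3 on the lower side and KCNA5 on the higher side, and the widest intervals belong to genes with low counts such as KCNA4 and KCNS1.

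Relative depth, read from low values that give back whole counts, was lowest in s9 (0.724) and highest in s4 (1.57), both of CTEPH. Of 15 cardiomyocyte markers 13 were measured. Limma called 2 of them, both higher (MYL2 and CSRP3). Another 3 were lower at an unadjusted p under 0.05 (CKM, MYBPC3 and TCAP). On the log2 scale, the 13-marker mean level relative to the 10-library mean was -0.07 to 0.13 in CTEPH and -0.23 to 0.14 in Sham. The same mean over 7 proliferation markers was 0.82 to 2.37 in CTEPH and -1.84 to -1.53 in Sham, and all 7 were called higher. For 6 Schwann and neural markers the mean was -0.77 to -0.14 in CTEPH and -0.02 to 1.16 in Sham, with 1 gene called, lower (SOX10), and 1 of the 6 fold changes positive. For 10 macrophage and monocyte markers the mean was 0.18 to 0.78 in CTEPH and -0.70 to -0.09 in Sham, with 3 genes called, all higher, and 1 of the 10 fold changes negative. For 9 endothelial markers the mean was -0.45 to -0.02 in CTEPH and -0.12 to 0.64 in Sham, with 2 genes called, both lower. In bulk tissue, fewer cells of a type and less RNA per cell cannot be told apart. The part of these marker levels in the differences of the called genes was not tested.

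Of the transient outward genes, KCND3 alone was called. It encodes a pore-forming subunit of the fast transient outward current and lies on chromosome 4 from 108394687 to 108621514 (Sscrofa11.1). Currents were not examined here. Its log2 value was 7.26, 5.69, 7.15, 6.92 and 8.16 in CTEPH libraries s1, s3, s4, s5 and s9, against 8.86, 9.51, 8.85, 8.77 and 9.16 in Sham libraries s2, s6, s7, s8 and s10. Every CTEPH library lay below every Sham library, with s3 lowest and s9 nearest to Sham. Read back as counts, KCND3 had 74, 24, 119, 67 and 102 in the same CTEPH libraries, against 277, 176, 171 and 240 in Sham libraries s2, s7, s8 and s10, while Sham library s6 was too high to be read back. KCND3 averaged 7.03 ± 0.889 in CTEPH and 9.03 ± 0.306 in Sham (mean ± SD, n = 5 each), a 3.99-fold lower level in CTEPH (log2 fold change -2.00 ± 0.36; limma adjusted p = 0.00741). It was called in all 10 refits that left out 1 library each, with a limma adjusted p of up to 0.024.

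The sister gene KCND2, also a pore-forming transient outward subunit, was not called. Its log2 value was 5.11, 6.21, 6.97, 8.90 and 7.17 in CTEPH libraries s1, s3, s4, s5 and s9, against 5.11, 6.31, 5.83, 6.26 and 6.75 in Sham libraries s2, s6, s7, s8 and s10. The groups overlapped, and CTEPH library s5 stood highest with 263 counts, against 19 to 60 counts in Sham libraries. The difference of 0.82 ± 0.57 did not pass (limma adjusted p = 0.46). KCND1, another pore gene of the subfamily, was at 4.21, 6.64, 6.64, 5.36 and 3.75 in CTEPH libraries s1, s3, s4, s5 and s9 and between 3.12 and 4.21 in the Sham libraries. CTEPH libraries s3, s4 and s5 exceeded all Sham libraries and s1 and s9 did not. The KCND1 difference of 1.40 ± 0.58 did not pass (limma adjusted p = 0.196), rests on 4 to 84 counts in CTEPH libraries and 3 to 14 in Sham libraries, and passed with library weights (1.93, limma adjusted p = 0.0441). KCNA4, the subunit of the slow transient outward current, had 7 to 44 counts in CTEPH libraries and 1 to 27 in Sham libraries and differed by 1.36 ± 0.84 (limma adjusted p = 0.394).

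KCNIP2 encodes the calcium-binding auxiliary subunit that brings the transient outward channels to the membrane. It was at 12.30, 14.00, 13.36, 13.07 and 13.38 in CTEPH libraries s1, s3, s4, s5 and s9, against 13.48, 14.04, 13.60, 13.84 and 14.07 in Sham libraries s2, s6, s7, s8 and s10. Only CTEPH library s3 lay inside the Sham range, and the difference of -0.58 ± 0.25 did not pass (unadjusted p = 0.0391, limma adjusted p = 0.216).

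Within-library ratios set the subunits against each other, so that a shift common to all genes of a library cancels. A ratio is the difference of the log2 values of 2 genes in 1 library. Its level still contains the lengths of the genes, so only its shift between groups was compared, in 8 ratios with two-sided exact permutation tests over all assignments of libraries to the groups (Benjamini-Hochberg over the 8, smallest possible p = 0.00794). KCND2 minus KCND3 was -2.15, 0.52, -0.19, 1.99 and -0.99 in CTEPH libraries s1, s3, s4, s5 and s9, against -3.75, -3.20, -3.03, -2.50 and -2.41 in Sham libraries s2, s6, s7, s8 and s10. Every CTEPH library lay above every Sham library, with a shift of 2.81 (exact permutation p = 0.00794, adjusted p = 0.0423). The ratio averaged -0.16 ± 1.56 in CTEPH and -2.98 ± 0.546 in Sham (mean ± SD, n = 5 each). KCNIP2 minus KCND3 was 6.19 ± 1.30 in CTEPH and 4.78 ± 0.221 in Sham (mean ± SD, n = 5 each), a shift of 1.41 (exact permutation p = 0.0159, adjusted p = 0.0423). CTEPH library s3, which had the fewest KCND3 counts, was highest at 8.32, and Sham library s8 at 5.08 lay just above CTEPH library s1 at 5.04. Without Sham library s2, s6, s7 or s10 neither ratio passed, nor KCNIP2 minus KCND3 without s8 (exact permutation, adjusted p of up to 0.102). For KCND2 minus KCND3 the groups stay without overlap in these refits, since leaving out a library cannot create overlap. Its adjusted p there depends also on the other ratios and on the fewer assignments. Over the refits without 1 library the shifts ranged from 2.28 to 3.31 and from 0.88 to 1.70, the lowest of the second being that without CTEPH library s3. Both ratios contain KCND3, whose own difference is described above. The ratios were chosen with earlier results of these data known, so these p-values do not give a separate test.

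KCNA5 encodes the subunit of the ultrarapid delayed rectifier, best known from the human atrium, and lies on chromosome 5 from 65439336 to 65442207. Its log2 value was 10.84, 11.05, 11.21, 10.43 and 10.90 in CTEPH libraries s1, s3, s4, s5 and s9, against 10.06, 9.69, 10.10, 10.76 and 9.98 in Sham libraries s2, s6, s7, s8 and s10. The groups overlapped because CTEPH library s5 lay below Sham library s8. KCNA5 averaged 10.89 ± 0.293 in CTEPH and 10.12 ± 0.393 in Sham (mean ± SD, n = 5 each), 1.70-fold higher in CTEPH (log2 fold change 0.77 ± 0.20; limma adjusted p = 0.0477). The call was lost in 8 of the 10 refits without 1 library, all except those without CTEPH library s5 or Sham library s8, with a limma adjusted p of up to 0.117. It was also lost without intensity trend (0.77, limma adjusted p = 0.079), without the lowest 25% of genes (0.77, limma adjusted p = 0.0517), with depth as covariate (0.78, limma adjusted p = 0.0546) and when libraries were centred on the cardiomyocyte markers (0.74 ± 0.25, limma adjusted p = 0.126). Atrial cardiomyocyte markers (6 measured) were at -0.48 to 0.76 in CTEPH and -1.32 to 0.56 in Sham. Limma called 0 of these 6, although 5 were at an unadjusted p below 0.05. Of those 5, 3 were higher in CTEPH (MYL4, NPPA and SLN) and 2 were lower (NR2F2 and TBX5). The part of the atrial markers in the KCNA5 difference was not tested. In Sham the marker level was highest in s8 and lowest in s6, as was KCNA5. In CTEPH the orders differed, with the marker level lowest in s1 (-0.48) and at 0.64 in s5, where KCNA5 was lowest.

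The cytosolic beta subunits that bind channels of the KCNA type gave 0 calls among 3 genes (limma, adjusted), 1 of them at an unadjusted p under 0.05. KCNAB3 was at 10.92, 11.03, 11.18, 10.66 and 11.03 in CTEPH libraries s1, s3, s4, s5 and s9, against 10.76, 10.68, 10.62, 10.39 and 10.61 in Sham libraries s2, s6, s7, s8 and s10. As for KCNA5, CTEPH library s5 was the lowest of its group and inside the Sham range. The difference of 0.35 ± 0.13 had an unadjusted p = 0.0205 and a limma adjusted p = 0.159. KCNAB1 differed by -0.09 ± 0.25 and KCNAB2 by 0.25 ± 0.31 (limma adjusted p = 0.883 and 0.708). KCNAB1 minus KCNA5 within a library was -2.58 ± 0.593 in CTEPH and -1.72 ± 0.370 in Sham (mean ± SD, n = 5 each), a shift of -0.86 that did not pass over the 8 ratios (exact permutation p = 0.0317, adjusted p = 0.0529).

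Among the electrically silent subunits, which form channels only together with KCNB subunits, KCNS3 was lower in CTEPH. KCNS3 lies on chromosome 3 from 119951110 to 119989541. Its counts were 3, 6, 14, 3 and 10 in CTEPH libraries s1, s3, s4, s5 and s9, against 22, 77, 16, 10 and 27 in Sham libraries s2, s6, s7, s8 and s10. Only CTEPH library s9 reached into the Sham range once depth was allowed for, at a log2 value of 4.89 against 4.64 in Sham library s8. The log2 value averaged 3.68 ± 0.898 in CTEPH and 5.65 ± 0.78 in Sham (mean ± SD, n = 5 each), and the log2 fold change was -1.97 ± 0.51 (limma adjusted p = 0.0468). The call was lost in 8 of the 10 refits without 1 library, all except those without Sham library s8 or CTEPH library s9, with a limma adjusted p of up to 0.123, with voom on the counts read back (-2.01, limma adjusted p = 0.0517; -2.02, limma adjusted p = 0.0534 with median-ratio scaling) and with depth as covariate (-1.98, limma adjusted p = 0.0564). A larger pseudocount brought the log2 fold change to -1.20, which was still called (limma adjusted p = 0.0459). KCNS1 differed by 1.22 ± 0.79 and KCNG2 by 0.88 ± 0.69, both from low counts of 0 to 64 and 1 to 43 over all libraries, and neither passed (limma adjusted p = 0.424 and 0.522).

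**Figure D2:**
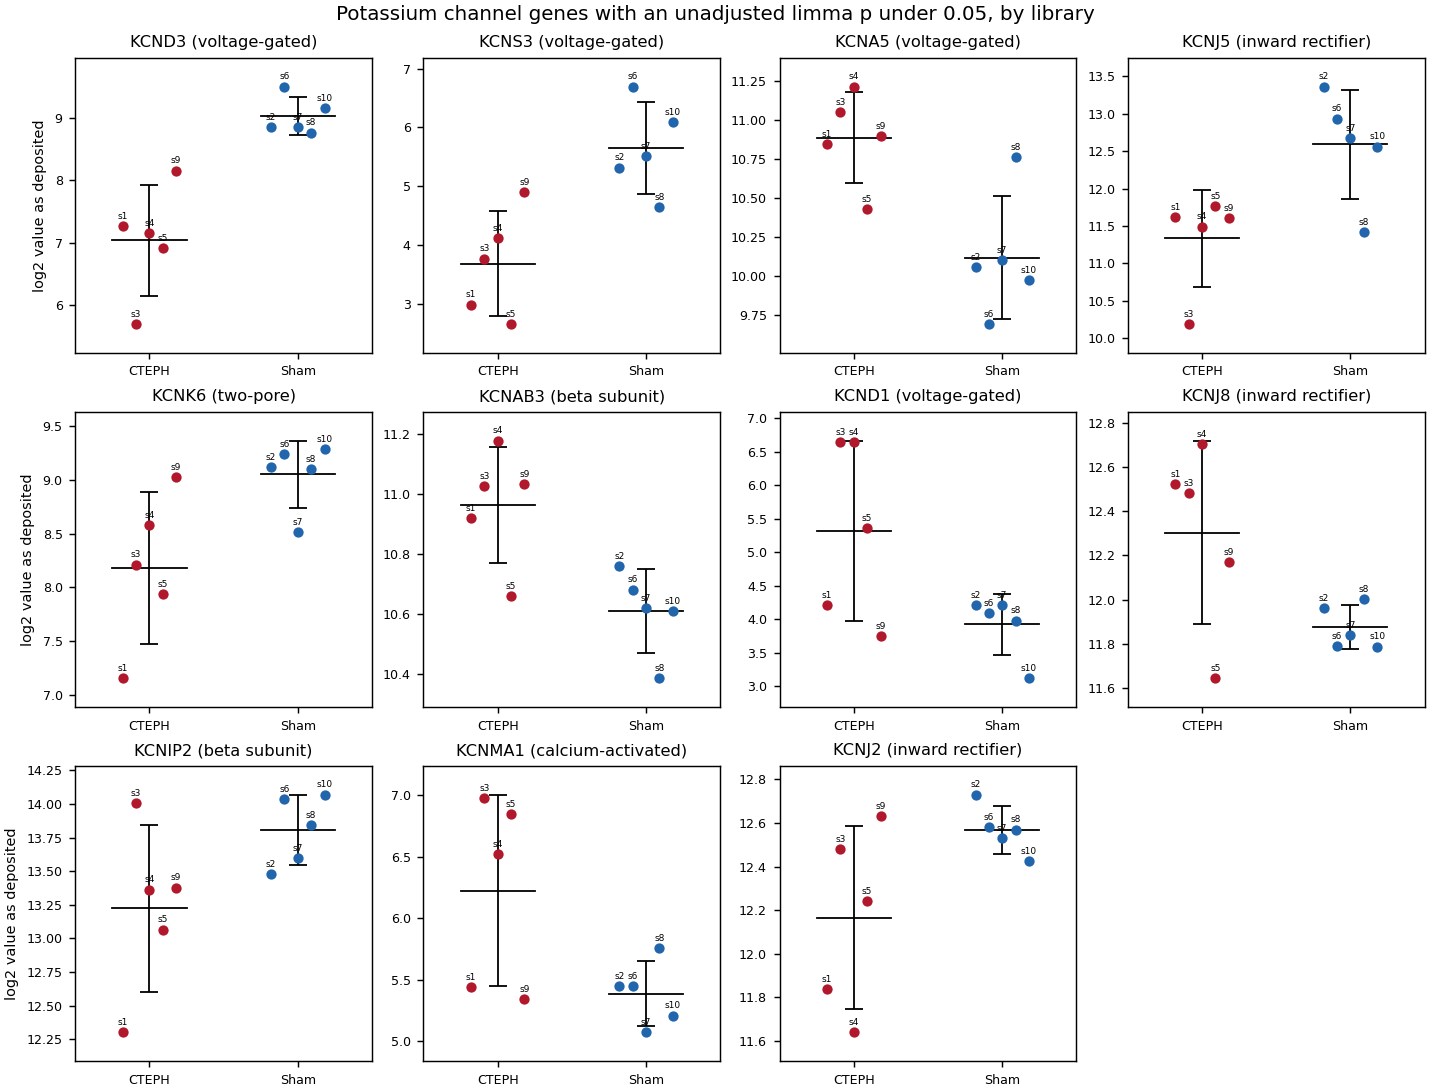
Deposited log2 values (vertical axes, a separate range for each gene) of the 11 potassium channel genes with an unadjusted limma p under 0.05, for CTEPH libraries (left, red) and Sham libraries (right, blue), with mean and SD in black (n = 5 each). KCND3 is the only gene with no overlap, and in KCND1 and KCNMA1 the CTEPH libraries s3, s4 and s5 lie above s1 and s9.

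The delayed rectifier genes of late repolarization gave small differences. KCNH2, which carries the rapid component, averaged 11.53 ± 0.398 in CTEPH, against 11.75 ± 0.349 in Sham, and KCNQ1, which carries the slow component, 11.51 ± 0.269 in CTEPH and 11.45 ± 0.384 in Sham (mean ± SD, n = 5 each). The 95% intervals of the differences ran from -0.68 to 0.23 for KCNH2 and from -0.36 to 0.47 for KCNQ1 (limma adjusted p = 0.603 and 0.902). KCNE1, the beta subunit that gives the slow component its kinetics, differed by 0.15 ± 0.19 (interval -0.26 to 0.56, limma adjusted p = 0.718). KCNE1 minus KCNQ1 within a library was -0.05 ± 0.315 in CTEPH and -0.14 ± 0.63 in Sham (mean ± SD, n = 5 each; exact permutation p = 0.849, adjusted p = 0.849). The other KCNE genes, which can also modulate KCNQ1, did not pass, with KCNE3 at 0.30 ± 0.29 and KCNE4 at -0.66 ± 0.41 (limma adjusted p = 0.613 and 0.41). KCNE4 was nearly constant in Sham, at 6.26 to 6.38, while the CTEPH libraries ran from 4.50 in s1 to 7.15 in s4. KCNQ5, known from neurons and vascular smooth muscle, differed by -0.60 ± 0.44 (limma adjusted p = 0.484).

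No inward rectifier gene passed the test: limma called 0 of 7, although 3 were at an unadjusted p below 0.05, and 5 of the 7 fold changes were negative. The largest difference was that of KCNJ5, a subunit of the acetylcholine-activated channel, on chromosome 9 from 55836777 to 55861288. Its log2 value was 11.61, 10.19, 11.49, 11.77 and 11.61 in CTEPH libraries s1, s3, s4, s5 and s9, against 13.36, 12.94, 12.67, 11.42 and 12.56 in Sham libraries s2, s6, s7, s8 and s10. All CTEPH libraries lay below 4 of the Sham libraries, and Sham library s8 lay within the CTEPH range. The difference of -1.26 ± 0.35 had an unadjusted p = 0.00352 and missed the threshold (limma adjusted p = 0.0633). It passed without Sham library s8 (-1.55, limma adjusted p = 0.0176), with library weights (-1.42, limma adjusted p = 0.0244) and when centred on cardiomyocyte markers (-1.28, limma adjusted p = 0.0338). Its partner subunit KCNJ3 differed by -0.04 ± 0.32 (limma adjusted p = 0.96). KCNJ3 minus KCNJ5 within a library was -2.36 ± 0.813 in CTEPH and -3.57 ± 0.732 in Sham (mean ± SD, n = 5 each), a shift of 1.21 that did not pass over the 8 ratios (exact permutation p = 0.0397, adjusted p = 0.0529).

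KCNJ2 encodes the main subunit of the inward rectifier current that sets the ventricular resting potential. Its log2 value was 11.84, 12.48, 11.64, 12.24 and 12.63 in CTEPH libraries s1, s3, s4, s5 and s9, against 12.73, 12.58, 12.53, 12.57 and 12.43 in Sham libraries s2, s6, s7, s8 and s10. The Sham libraries were tightly grouped, and CTEPH libraries s3 and s9 lay among them. The difference of -0.40 ± 0.18 did not pass (unadjusted p = 0.0444, limma adjusted p = 0.232). KCNJ4 and KCNJ14, other subunits of this subfamily, differed by -0.39 ± 0.36 and 0.89 ± 0.50 (limma adjusted p = 0.603 and 0.348). KCNJ14 had 9 to 45 counts in CTEPH libraries and 4 to 31 in Sham libraries.

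The genes of the ATP-sensitive channels, which open when cellular energy falls, had differences of opposite sign. KCNJ8, the pore subunit known from vascular smooth muscle and pericytes, was at 12.52, 12.48, 12.70, 11.64 and 12.17 in CTEPH libraries s1, s3, s4, s5 and s9, against 11.96, 11.79, 11.84, 12.003 and 11.79 in Sham libraries s2, s6, s7, s8 and s10. In CTEPH, 4 of 5 libraries exceeded all Sham libraries, and s5 lay below them all. The difference of 0.43 ± 0.18 did not pass (unadjusted p = 0.0329, limma adjusted p = 0.2), but passed without CTEPH library s5 (0.59, limma adjusted p = 0.0387). KCNJ11, the pore subunit of the cardiomyocyte sarcolemma, averaged 9.44 ± 0.653 in CTEPH and 10.19 ± 0.773 in Sham (mean ± SD, n = 5 each), a difference of -0.75 ± 0.37 (limma adjusted p = 0.28).

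ABCC9, the sulfonylurea receptor subunit that assembles with these pores, lies next to KCNJ8 on chromosome 5 with 22.34 kb and no annotated gene between them. ABCC9 differed by -0.40 ± 0.19 (limma adjusted p = 0.256). KCNJ8 minus ABCC9 within a library was 1.28, 0.80, 0.91, -0.33 and 0.40 in CTEPH libraries s1, s3, s4, s5 and s9, against -0.60, 0.20, -0.04, -0.23 and -0.41 in Sham libraries s2, s6, s7, s8 and s10. Apart from CTEPH library s5, the CTEPH libraries lay above all Sham libraries, and the shift of 0.83 did not pass over the 8 ratios (exact permutation p = 0.0397, adjusted p = 0.0529). KCNJ11 minus ABCC9 shifted by -0.35 (exact permutation p = 0.468, adjusted p = 0.535). Of the 11 smooth muscle and pericyte markers, a list that includes ABCC9, 5 had a positive and 6 a negative log2 fold change. Limma called 1 of them, CNN1, which was higher (1.98 ± 0.47, limma adjusted p = 0.0294). Their part in the KCNJ8 difference was not tested.

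**Figure D3:**
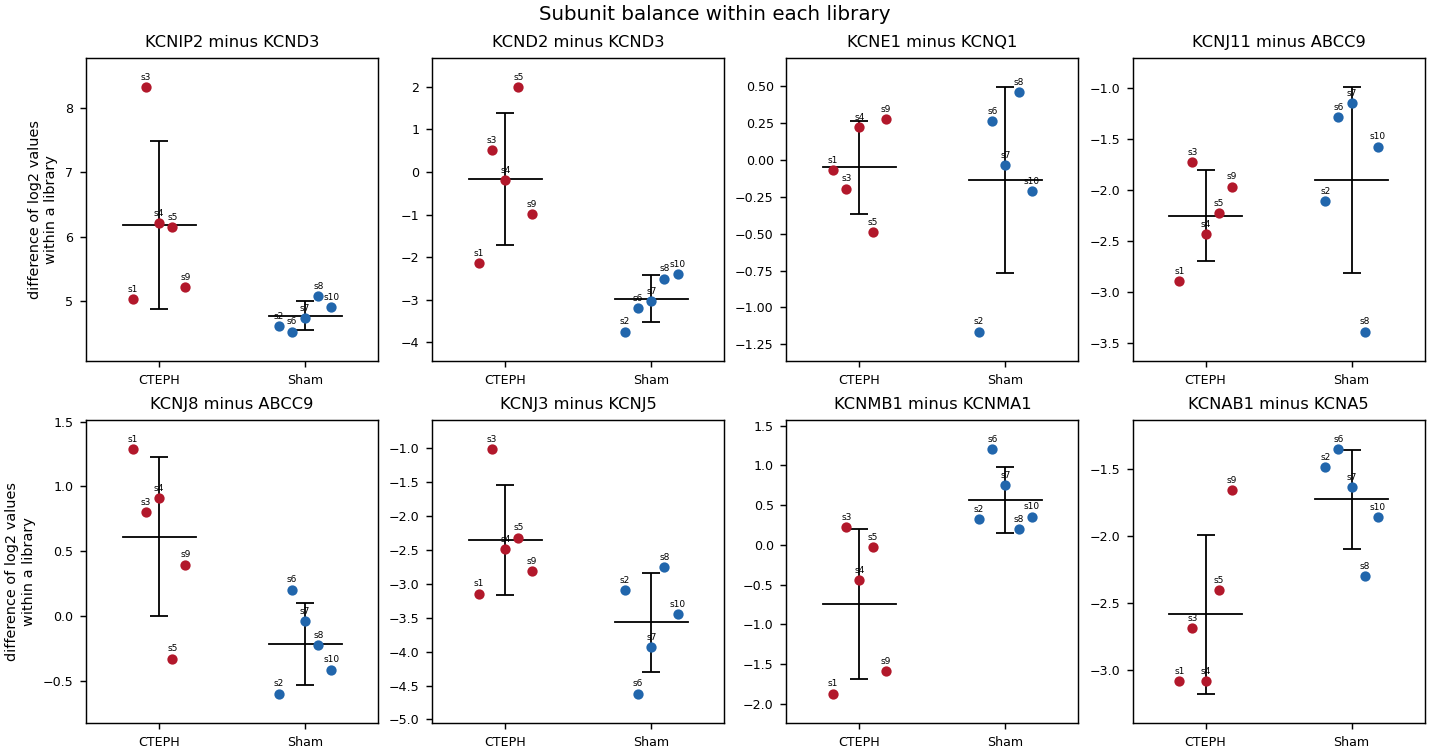
Within-library differences of log2 values (vertical axes) for 8 pairs of subunits in CTEPH libraries (left, red) and Sham libraries (right, blue), with mean and SD in black (n = 5 each). KCND2 minus KCND3 separates the groups without overlap, whereas for KCNE1 minus KCNQ1 the CTEPH libraries lie inside the Sham range.

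Of the two-pore background channels, KCNK6 had an unadjusted p under 0.05 and KCNK7 did not. KCNK6 was at 7.15, 8.21, 8.58, 7.94 and 9.02 in CTEPH libraries s1, s3, s4, s5 and s9, against 9.12, 9.24, 8.51, 9.10 and 9.29 in Sham libraries s2, s6, s7, s8 and s10. Apart from Sham library s7, all Sham libraries lay above the CTEPH libraries. The difference of -0.87 ± 0.30 did not pass (limma adjusted p = 0.121), but passed without CTEPH library s9 (-1.08, limma adjusted p = 0.0405). KCNK7 differed by 0.03 ± 0.32 (limma adjusted p = 0.97).

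In the calcium-activated family limma called 0 of 5 genes, with 1 at an unadjusted p below 0.05. KCNMA1 encodes the large-conductance pore and was at 5.44, 6.97, 6.52, 6.84 and 5.34 in CTEPH libraries s1, s3, s4, s5 and s9, against 5.45, 5.45, 5.07, 5.76 and 5.21 in Sham libraries s2, s6, s7, s8 and s10. CTEPH libraries s3, s4 and s5 exceeded all Sham libraries, and s1 and s9 lay among them. The difference of 0.84 ± 0.37 did not pass (unadjusted p = 0.04, limma adjusted p = 0.219). KCNMB1, its smooth muscle beta subunit, split the CTEPH libraries further, with 68, 57 and 63 counts in s3, s4 and s5 and 5 and 4 in s1 and s9, against 19 to 74 in Sham libraries. The KCNMB1 group difference was -0.47 ± 0.66 (limma adjusted p = 0.739). KCNMB1 minus KCNMA1 within a library was -1.87, 0.23, -0.44, -0.02 and -1.59 in CTEPH libraries s1, s3, s4, s5 and s9, against 0.32, 1.20, 0.76, 0.20 and 0.36 in Sham libraries s2, s6, s7, s8 and s10. This ratio was lower in CTEPH, with a shift of -1.31 (exact permutation p = 0.0159, adjusted p = 0.0423), and only CTEPH library s3 reached the lowest Sham library, s8. The adjusted p depends on the low p-values of the KCND3 ratios, which share the adjustment. All ratios were chosen with earlier results of these data known, so it does not give a separate test. Leaving out 1 library gave shifts of -1.55 to -1.02 and an exact adjusted p of up to 0.102, past the threshold without Sham library s2, s6, s7 or s10.

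The mean level of the smooth muscle and pericyte markers (11 measured) split the CTEPH libraries in the same way as KCNMB1. It was 0.30, 0.48 and 0.38 in s3, s4 and s5, and -0.63 and -0.34 in s1 and s9, against -0.19 to 0.12 in the Sham libraries. Of the single markers, ACTA2, MYH11, CNN1, NOTCH3, MCAM and CSPG4 split in this way. TAGLN, SMTN, RGS5, PDGFRB and ABCC9 did not. KCND1 and KCNMA1 were also higher in s3, s4 and s5 than in s1 and s9. The part of this marker level in the values of KCNMB1, KCNMA1 and KCND1 was not tested. KCNMB4, the neuronal beta subunit, was at 5.44, 2.91, 6.12, 5.41 and 6.30 in CTEPH libraries s1, s3, s4, s5 and s9 and at 5.77 to 6.62 in the Sham libraries. Its difference of -1.07 ± 0.54 did not pass (limma adjusted p = 0.289), and the part of the Schwann and neural marker level given above was not tested. The small-conductance genes KCNN2 and KCNN3 differed by -0.26 ± 0.22 and 0.22 ± 0.33 (limma adjusted p = 0.55 and 0.755). KCNT1 and KCNT2, which belong to this family by sequence but are gated by sodium, differed by 0.02 ± 0.57 and -0.31 ± 0.72 (limma adjusted p = 0.992 and 0.857). KCNT2 varied most within Sham among these genes, from 6.59 in s6 to 11.08 in s8.

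The extreme values were spread unevenly over the libraries. CTEPH library s1 was the lowest of the 10 libraries for 9 of the 35 members, including KCNIP2, KCNJ11, KCNJ4 and KCNK6, while it was the lowest for 13.38% of all genes. CTEPH library s4 was the highest for 8 members, against 9.16% of all genes. The SD was larger in CTEPH than in Sham for 18 of the 35 members and for 69.6% of all genes.

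**Figure D4:**
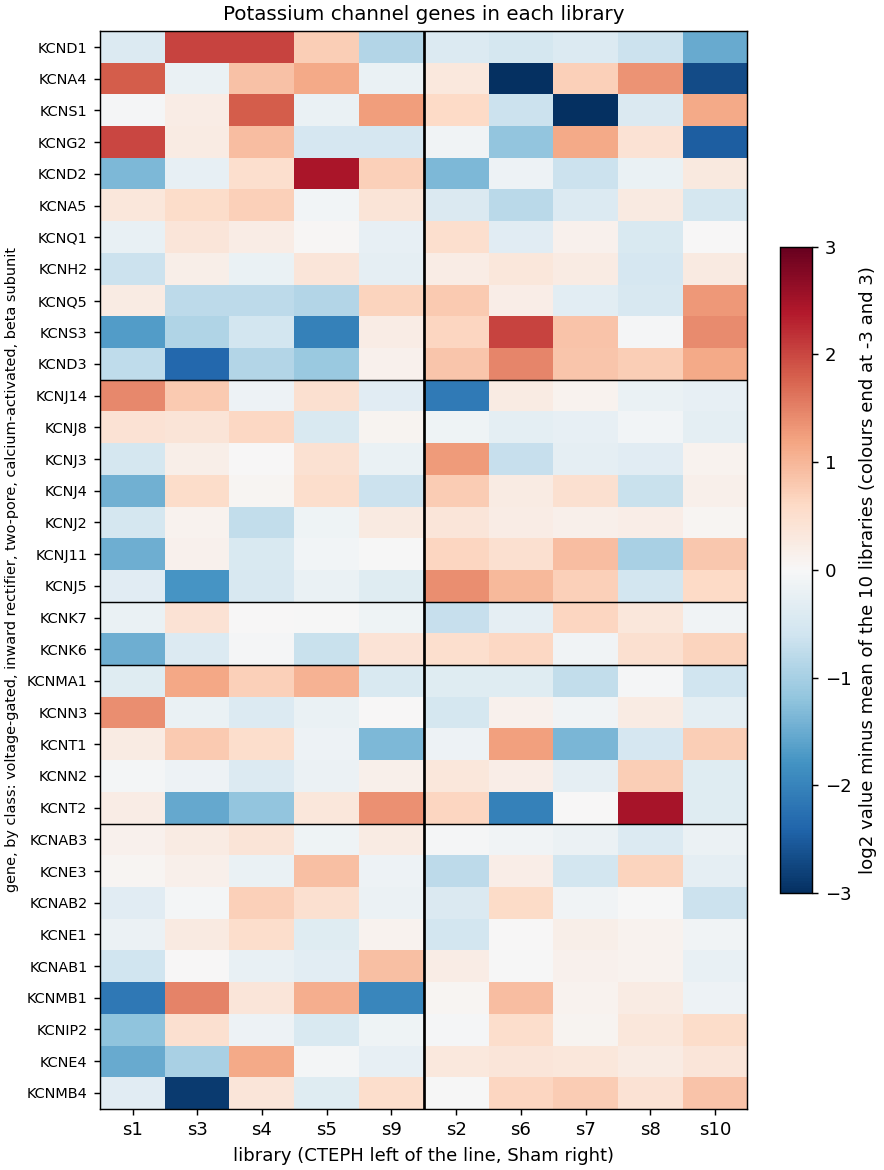
Deviation of 34 of the 35 potassium channel genes from the 10-library mean (colour, log2 scale, colours end at -3 and 3) in CTEPH libraries left of the line and Sham libraries right of it, with genes grouped by class. KCND3 and KCNS3 are blue in most CTEPH libraries and red in most Sham libraries, and CTEPH library s1 shows low values in KCNK6, KCNJ4, KCNJ11, KCNMB1 and KCNIP2.

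Genes that work with these channels were taken from a list of 40 partners, of which 28 were measured. The list holds auxiliary subunits, sulfonylurea receptors, pacemaker channels, sodium pump subunits, anchoring proteins and regulators. Of these, 1 rose and 0 fell (limma, 4.62% of all genes called), and 5 had an unadjusted p under 0.05, against 20.3% of all genes. Their median log2 fold change was -0.12. The called gene was ATP1B1, the beta subunit of the sodium pump that returns potassium to the cell. ATP1B1 was at 14.42, 14.38, 14.17, 14.07 and 13.66 in CTEPH libraries s1, s3, s4, s5 and s9, against 13.44, 13.07, 13.42, 13.54 and 13.32 in Sham libraries s2, s6, s7, s8 and s10. The groups did not overlap, and the log2 fold change was 0.78 ± 0.16 (limma adjusted p = 0.0151). ATP1B2, another pump beta subunit, was at -0.76 ± 0.20 without overlap between groups and did not pass (limma adjusted p = 0.0508). LRRC55, an auxiliary subunit of the large-conductance channel, was at -1.36 ± 0.40 without overlap between groups (limma adjusted p = 0.0746). Its level was low, at log2 values of 2.98 to 5.03 in CTEPH and 5.37 to 5.96 in Sham. In all, the groups did not overlap for 3 of the 28 partners (10.7%), against 6.57% of all genes. IRX3, a transcription factor of the conduction system, was at -0.35 ± 0.15 (limma adjusted p = 0.225). POPDC2, a cyclic nucleotide-binding membrane protein, was at 0.48 ± 0.22 (limma adjusted p = 0.233).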

How the data were processed

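Bulk RNA of right ventricular biopsies was sequenced from 5 CTEPH and 5 Sham pigs, 1 library per pig, per the labels. Per the submitters' processing notes, the authors used featureCounts, limma 3.50.0, edgeR 3.36.0, FastQC 0.11.5, cutadapt 1.15 and bcl2fastq 2.18.12 with the pig build Sscrofa11.1. Aligner, annotation and strand setting: not given in the sources used here. RNA is labelled as polyA and the kit is one for total RNA. The authors' deposited table holds log2 values that share nearly 1 distribution over the libraries, as quantile normalization leaves behind, so a change common to most genes could not appear. Below 9.48 the deposited log2 values equal quantile means of log2(2 × count + 1) within 1e-06, which gave back whole counts for 52.8% of values and for all libraries in 6763 genes, 19 of them members. A common factor on these counts cannot be settled from the values. Total depth is unknown, and relative depth is the median ratio over 5703 genes with at least 5 counts per library. Levels were not compared between genes, since transcript lengths were not used here. Ensembl identifiers were matched to symbols for 12378 genes, and positions are those of RefSeq genes with the same symbol (Sscrofa11.1). No sequences are shown.

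CTEPH was compared with Sham using limma 3.58.1 in R 4.3.3, with intensity-trended moderated variances, no covariate, two-sided tests and Benjamini-Hochberg adjustment over all genes. The fit was tested on simulated data with normal noise. That simulation held no low whole counts, and its changes were larger than that of KCNA5. Measured members could be named, with full statistics for those with an unadjusted p under 0.05, a cardiac current set and the 6 largest changes. Members, lists and ratios were chosen with earlier results of these data known. Alternatives were other variance models, library weights, dropping the lowest 25% of genes, a pseudocount of 15, centring on cardiomyocyte markers, voom on recovered counts, depth as covariate, a test against a 1.5-fold change and leaving out each library. Ratios with KCNJ12, KCNK1 or KCNK3 were not analysed here. Of the measured genes, 1 member and 1 partner are counted but not reported singly here.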

Additional observations from a re-analysis of the deposited data

Results flagged for a closer look

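In 8 of 86 groups of 5 libraries tested over members and ratios, 1 library stood apart from the other 4 of its group by Dixon's gap test at its 95% level. Chance alone flags about 1 in 20 groups. In CTEPH, library s3 was low for KCNJ5 at 10.19 (the others 11.49 to 11.77) and for KCNMB4 at 2.91 (the others 5.41 to 6.30), and library s1 was high for KCNN3 at 8.26 (the others 6.47 to 6.88). In Sham, library s8 was low for KCNH2 at 11.13 (the others 11.85 to 11.98) and for KCNJ11 at 8.84 (the others 10.30 to 10.74). Sham library s10 was low for KCND1 at 3.12 (the others 3.98 to 4.21), s2 for KCNJ14 at 2.98 (the others 4.87 to 5.37) and s7 for KCNK6 at 8.51 (the others 9.10 to 9.29).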

How the results depend on the processing

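KCND3 was called in each refit of its deposited values tested against no change, with log2 fold changes of -2.28 to -1.66 and a limma adjusted p of up to 0.024. Of 3 members called, 5 were called with library weights, 1 after dropping the lowest 25% of genes, 1 with depth as covariate, and 0 against a 1.5-fold change and with voom on recovered counts under either scaling, where KCND3 and KCNA5 had no complete counts and were not tested (median-ratio scaling was added after seeing the data). Of 1 higher, 2 were called with library weights and 0 without intensity trend, after dropping the lowest 25%, centred on cardiomyocyte markers, with voom under either scaling, with depth as covariate and against a 1.5-fold change. Of 2 lower, 1 remained after dropping the lowest 25%, where KCNS3 was itself dropped and not tested. With depth as covariate 1 remained in number, and 0 with voom under either scaling and against a 1.5-fold change. Partners called numbered 2 without intensity trend and with library weights, and 0 with voom (TMM) and against a 1.5-fold change. All genes called were 723, 1269 with library weights, 316 of 6763 with voom (TMM) and 127 against a 1.5-fold change. Leaving out 1 library gave 1 to 4 members called, 0 to 2 higher, 1 to 3 lower, 1 to 2 partners and 401 to 961 genes. Sign changes occurred only in uncalled values. KCNT1 was at -0.0143 with a larger pseudocount, -0.00756 centred on cardiomyocyte markers, -0.063 with depth as covariate and -0.0033 with voom (median ratio), KCNMB1 at 0.0544 and KCNJ3 at 0.0381 with library weights. Without 1 library, KCNT1 ranged from -0.33 to 0.36, KCNT2 from -0.85 to 0.27, KCNMB1 from -0.90 to 0.00853, KCNJ3 from -0.22 to 0.27, KCNK7 from -0.14 to 0.20, KCNN3 from -0.095 to 0.35, KCNQ1 from -0.0456 to 0.19, KCNAB1 from -0.32 to 0.0484 and KCNE1 minus KCNQ1 from -0.17 to 0.24. The causes of these shifts were not tested. No paired analysis was possible because the labels give no pairing of pigs. Members with few counts, such as KCNS3, KCND1 and KCNA4, are limited by depth.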
